A study of Caenorhabditis elegans with 16 samples.

Results

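The wild-type response to starvation was described from 4 of the 16 RNA-seq samples of the study, namely 2 samples of fed and 2 samples of starved *Caenorhabditis elegans* larvae at the L1 stage, which were taken because their labels name them as wild type (N2) and as fed or starved. Eggs were obtained by bleaching gravid adults. The fed worms were collected 18 h after the eggs were placed on nematode growth medium dishes that carried a lawn of *E. coli* OP50, and the starved worms were kept for 33 h in M9, a buffered salt solution without nutrients. The worms of all 4 samples carried no mutation or transgene and received no drug, and each sample was RNA from a pool of whole worms. The study asked what *hlh-30*, which encodes a transcription factor of the TFEB family, does in starvation and refeeding, and its other 12 samples came from wild-type worms refed with a defined liquid medium (CeMM) and from *hlh-30(lf)* mutants that were fed, starved or refed. Because the fed worms grew on a dish and the starved worms were held in liquid without growth, age, developmental progress and culture differed together with food, and their effects cannot be told apart. The study describes the samples of a group as biological replicates, prepared on separate occasions.

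A larva that hatches without food stops in L1 and does not begin the postembryonic cell divisions until it feeds. During this arrest insulin-like signalling is low, the transcription factor DAF-16 (FOXO) is active in the nucleus, and the larva lives on stored lipid, glycogen and protein that are broken down in part by lysosomes and autophagy. A feeding larva instead makes ribosomes, divides its blast cells, and prepares the new cuticle that it will need at the molt. Levels were expressed as CPM, the count of a gene scaled to a fixed total of counts on genes in each sample, and fold changes are starved over fed on the log2 scale with their standard errors (SE). A gene was called, and is said to have risen or fallen, when the Benjamini-Hochberg adjusted p of edgeR's quasi-likelihood test over all genes was at most 0.05; every adjusted p below comes from this test.

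The samples held 32110381 and 32847267 counts on genes for the fed worms and 34684827 and 36808042 for the starved worms. A level of 0.0815 to 0.0934 CPM therefore stands for 3 counts, a limit that allows for counting error alone. Between 13030 and 13208 genes reached 1 CPM in each sample. Over the 13529 genes that averaged at least 1 CPM across all 16 samples, the log2 values of replicates correlated by 0.9958 in the fed group. In the starved group they correlated by 0.993, against 0.7935 to 0.8176 between groups. These values describe likeness across genes that are not independent. Ribosomal RNA genes took 1.42% and 1.45% of the counts in the fed and 2.75% and 3.11% in the starved samples. The mutated gene of the other genotype, *hlh-30* (WBGene00020930, chromosome IV, 4014799 to 4028127), had 633 and 664 CPM in the fed and 673 and 606 CPM in the starved wild-type samples, a difference that was not called (log2 fold change -0.06, SE 0.10, adjusted p = 0.734). Starved replicate 1 stood apart in a few genes. It held *vit-2*, which encodes a yolk protein made by adult hermaphrodites, at 42.2 CPM, whereas starved replicate 2 had 0.435 CPM and the fed samples 0.187 and 0.122 CPM. With *vit-5*, *vit-6* and the eggshell gene *perm-4*, found after the values were seen, *vit-2* was 1 of 4 genes of at least 2 CPM that differed 4-fold or more between the starved replicates, and no gene did so between the fed replicates. The 6 yolk genes together made up 65.1 CPM of that sample and 1.84 to 3.1 CPM of the other 3. None of them was called in the main edgeR fit, although 2 were higher and 1 lower there at an unadjusted p under 0.05. With low-count genes filtered out edgeR called *vit-6* higher. DESeq2 called 3 yolk genes higher, namely *vit-2*, *vit-5* and *vit-6*. The older quasi-likelihood method and an edgeR fit with the replicate number as a block called the same 3 higher. Their part in the results below was not tested, but the counts without this sample are given in the closing section.

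Starvation moved a large part of the transcriptome in both directions. Of 30177 genes tested, 6055 were higher in the starved worms (20.1% of all genes tested) and 6076 were lower (20.1%). Among the 19156 protein-coding genes tested, 5317 rose (27.8%) and 5860 fell (30.6%). Counts in the gene lists below are to be read beside these shares. The change was at least 2-fold for 3651 of the genes that rose and 3590 of those that fell, and at least 16-fold for 446 and 540. Where a group had no count at all and its level was set to the limit of 3 counts per library, at least 241 genes rose and 462 fell 16-fold or more. The balance between the directions depended on the scaling, because upper-quartile factors shifted the median of genes at 1 CPM or more by 0.22 on the log2 scale and called 7530 genes higher and 5011 lower, 60% of the calls being higher against 49.9%. All other changes below are relative to the TMM scaling. On it the median was 0.00 over all genes tested, of which 3512 had no count in these 4 samples. Over the 14070 genes at 1 CPM or more in a group the median was -0.05. Genes of every nuclear chromosome took part, with between 26.1% and 29.8% of the protein-coding genes higher and between 27.1% and 34.6% lower. Outside the protein-coding genes, 347 of 1786 pseudogenes rose and 90 fell, and 46 of 171 lincRNA genes rose and 15 fell. The share of counts on noncoding RNA genes was 0.361% and 0.409% in the fed and 2.43% and 2.14% in the starved samples with *tts-1*, described in the next paragraph, holding 16400 and 13900 CPM of the latter. In whole-worm RNA, fewer cells of a type and less RNA per cell cannot be told apart.

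**Figure D1:**
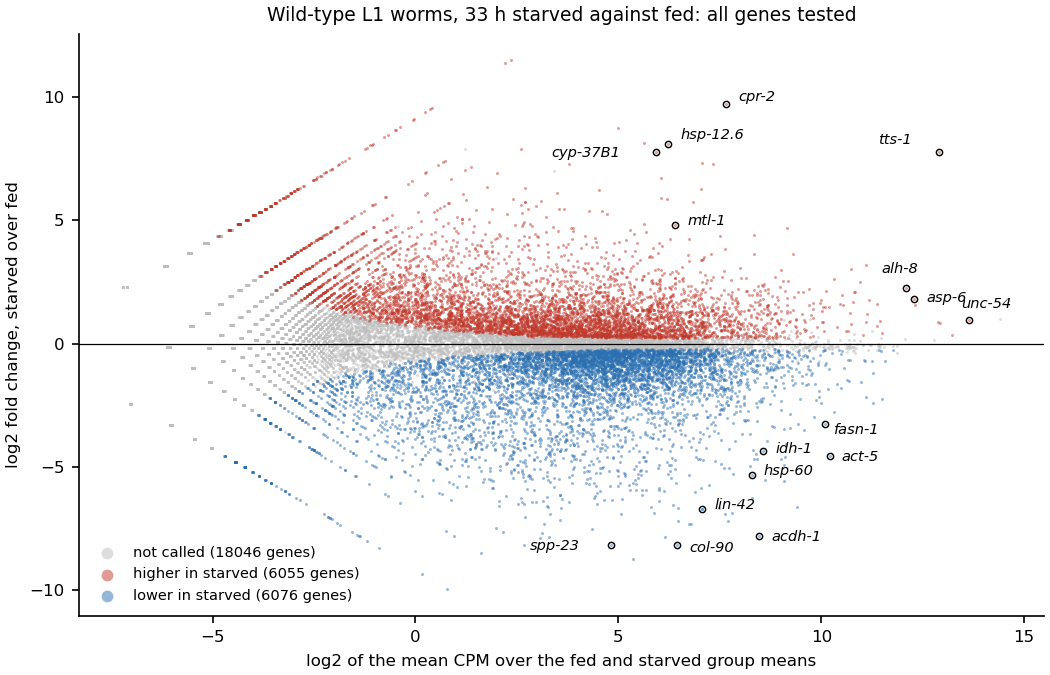
Every gene tested, with the log2 of its mean CPM over both groups on the horizontal axis and its log2 fold change of starved over fed on the vertical axis; red points are the 6055 genes that rose, blue points the 6076 that fell, grey points those not called, and circles mark genes described in the text. The called genes spread to both sides at all levels, from *tts-1* and *cpr-2* at the top to *col-90* and *acdh-1* at the bottom.

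Among genes whose higher group averaged at least 10 CPM, the 12 largest rises included a stress chaperone, a protease and detoxifying enzymes. *cpr-2*, which encodes a cathepsin B-like cysteine protease (chromosome V, 16532989 to 16534110), had 0.436 and 0.487 CPM in the fed and 359 and 448 CPM in the starved samples. Its rise was the largest of the 12 (log2 fold change 9.73, SE 0.36, adjusted p = 9.76e-09). *hsp-12.6* (chromosome IV, 9446385 to 9446980), a small heat shock protein gene and a known target of DAF-16, had 0.467 and 0.578 CPM in the fed and 171 and 127 CPM in the starved samples, a log2 fold change of 8.10 (SE 0.18, adjusted p = 1.06e-22). The highest level belonged to *tts-1*, a long noncoding RNA found with ribosomes in dauer larvae and long-lived *daf-2* mutants (chromosome X, 1504131 to 1504841). It had 56.9 and 76.4 CPM in the fed samples and 16400 and 13900 CPM in the starved samples (log2 fold change 7.79, SE 0.22). The cytochrome P450 genes *cyp-37B1* and *cyp-32B1* rose from 0.623 and 0.457 CPM to 117 and 127 CPM and from 1.25 and 1.16 CPM to 124 and 140 CPM. The other 7 of the 12 were *W02D7.11*, *lmd-4*, *B0379.7*, *F40E3.5*, *F43C11.7*, *arrd-11* and *F21C10.11*, with log2 fold changes between 6.32 and 8.76. Of these, *lmd-4*, which encodes a LysM domain protein, had 0.28 and 0.396 CPM in the fed and 86.8 and 109 CPM in the starved samples. In all 12 genes every starved sample was above every fed sample, which the rule for choosing them required.

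Cuticle collagens and a metabolic enzyme were among the 12 largest falls, chosen in the same way. *acdh-1*, which encodes the acyl-CoA dehydrogenase that begins the vitamin B12-independent breakdown of propionate (chromosome I, 6497438 to 6499559), had 719 and 686 CPM in the fed and 2.83 and 3.59 CPM in the starved samples. Its log2 fold change was -7.81 (SE 0.33, adjusted p = 4.58e-08). *spp-23*, a saposin-like gene, had 54.9 and 57.2 CPM in the fed samples and 0.144 and 0.245 CPM in the starved samples (log2 fold change -8.17, SE 0.34). The collagen genes *col-90*, *col-73*, *sqt-1* and *rol-8* fell from between 141 and 221 CPM in the fed samples to between 0.375 and 1.9 CPM in the starved samples. Uncharacterised genes made up most of the rest, and the lowest fold change was that of *K02E11.10*, with 81.7 and 83.4 CPM in the fed and 0.144 and 0.245 CPM in the starved samples (log2 fold change -8.73, SE 0.43).

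**Figure D2:**
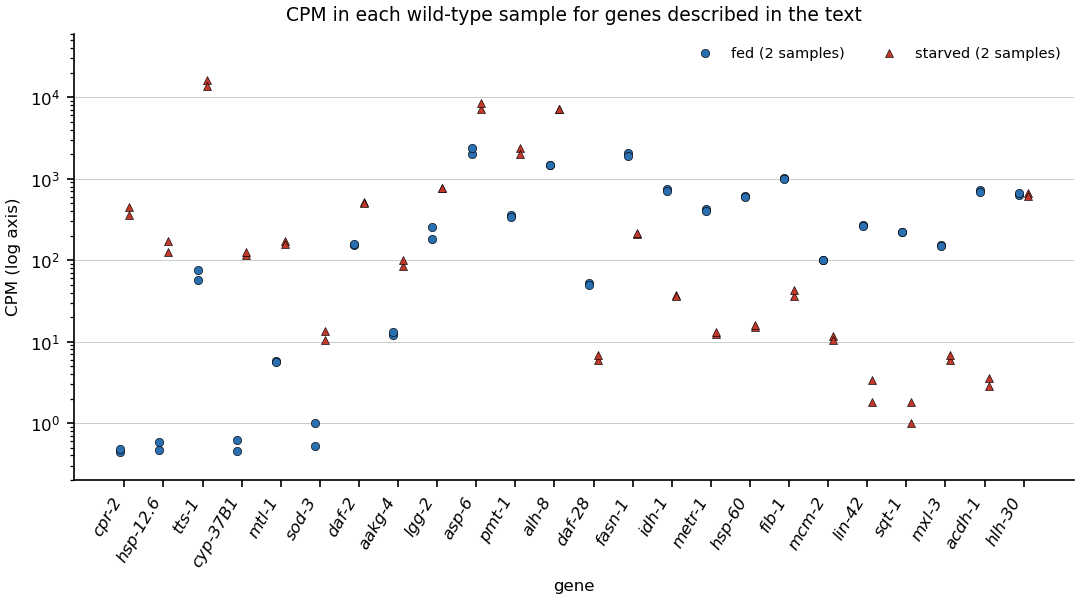
CPM on a log axis in each of the 4 wild-type samples for 24 genes described in the text; circles are the 2 fed and triangles the 2 starved samples. The groups lie apart for every gene shown but *hlh-30*, whose 4 samples lie between 606 and 673 CPM. The groups did not overlap in 58.9% of all genes tested.

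Per unit of transcript length, *asp-6*, *gdh-1*, *alh-8* and *mlc-2* were among the 10 most abundant nuclear protein-coding genes of the starved but not of the fed worms. Levels of different genes were compared as RPKM, that is CPM divided by the exonic length in kilobases. The most abundant nuclear protein-coding gene of the starved worms was *asp-1*, an intestinal aspartyl protease gene, at 7350 RPKM in the starved and 3970 RPKM in the fed samples on average. *asp-6*, another aspartyl protease gene, was at 6310 RPKM in the starved and 1760 RPKM in the fed group. *gdh-1*, which encodes glutamate dehydrogenase, the mitochondrial enzyme that feeds amino acid carbon into the tricarboxylic acid cycle, was at 3930 RPKM when starved and 1310 RPKM when fed. The others new to the top 10 were *alh-8* (methylmalonate semialdehyde dehydrogenase, 3700 RPKM) and *mlc-2* (a muscle myosin light chain, 3600 RPKM). The remaining 5 were *ant-1.1*, *eef-1A.1*, *rps-8*, *rpl-18* and *Y82E9BR.3* (a subunit c gene of ATP synthase), which like *asp-1* were in the top 10 of the fed group as well. The 20 most abundant genes apart from rRNA genes took 8.8% and 9.03% of the non-rRNA counts in the fed and 13.7% and 13.8% in the starved samples.

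Genes of the insulin pathway rose on balance, and the insulin-like peptides moved in both directions. The insulin receptor gene *daf-2* (chromosome III, 2995763 to 3028800) had 152 and 156 CPM in the fed and 510 and 504 CPM in the starved samples (log2 fold change 1.68, SE 0.23, adjusted p = 0.000242). Below the receptor, *ist-1*, which encodes an insulin receptor substrate homolog, rose from 50 and 59.3 CPM to 174 and 190 CPM, and the kinase gene *akt-1* from 85.5 and 93.2 CPM to 246 and 273 CPM. *daf-16* itself rose less, from 323 and 348 CPM to 478 and 449 CPM (log2 fold change 0.43, SE 0.09, adjusted p = 0.000317). Of the 14 genes from the receptor to DAF-16 and its cofactors, 9 rose and 2 fell (median log2 fold change 0.39). The phosphoinositide 3-kinase gene *age-1*, chosen after its values were seen, had 39.7 and 39.1 CPM in the fed and 38.5 and 38.9 CPM in the starved samples and was not called. Among the 39 genes of insulin-like peptides tested, which act as ligands or antagonists of DAF-2, 14 rose (35.9%) and 9 fell (23.1%). Over all protein-coding genes tested these shares were 27.8% and 30.6%. *daf-28*, an agonist made by sensory neurons and also chosen after its values were seen, fell from 52 and 48.9 CPM to 5.97 and 6.79 CPM (log2 fold change -3.02, SE 0.12). *ins-5* fell from 9.62 and 9.89 CPM to 0.404 and 0.462 CPM. In the other direction, *ins-17* rose from 23.4 and 25.2 CPM to 96.9 and 93.1 CPM and *ins-24* from 3.67 and 3.53 CPM to 27 and 22.7 CPM.

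Textbook targets of DAF-16 were not uniform. Of 19 tested, 8 rose (42.1%) and 4 fell (21.1%), beside 27.8% and 30.6% of all protein-coding genes tested. Besides *hsp-12.6*, the metallothionein gene *mtl-1* (metal binding; chromosome V, 6691369 to 6691863) rose from 5.76 and 5.69 CPM to 172 and 157 CPM (log2 fold change 4.80, SE 0.19). *sod-3*, which encodes a mitochondrial superoxide dismutase, rose from 0.997 and 0.518 CPM to 13.5 and 10.6 CPM (log2 fold change 3.95, SE 0.20). The samples of *mtl-1* and *sod-3* did not overlap between the groups, which held for 58.9% of all genes tested. By contrast, the stearoyl-CoA desaturase gene *fat-7* fell from 3.36 and 3.53 CPM to 0.259 and 0.0543 CPM, and *icl-1*, which encodes the bifunctional glyoxylate enzyme, fell from 320 and 517 CPM to 44.8 and 79.5 CPM. *pck-1*, a phosphoenolpyruvate carboxykinase gene, had 691 and 700 CPM in the fed and 697 and 625 CPM in the starved samples and was not called.

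Most subunit genes of AMPK, the kinase that responds to a low energy charge, rose. Of 9 subunit genes and those of LKB1 (*par-4*) and its partner (*strd-1*), 11 in all, 8 rose and 2 fell (median log2 fold change 0.60). The fall of *par-4* (-0.33) was not called without starved replicate 1, with library size only or under upper-quartile factors (-0.30 to -0.12). Both catalytic subunit genes rose, *aak-1* from 7.07 and 8.01 CPM to 38.5 and 39.9 CPM and *aak-2* from 91.9 and 107 CPM to 230 and 240 CPM. *aakg-4*, a regulatory gamma subunit gene, rose from 12.2 and 13 CPM to 85.6 and 101 CPM (log2 fold change 2.86, SE 0.11, adjusted p = 5.4e-18), whereas *aakg-2* fell from 42.1 and 40.6 CPM to 19.1 and 16.8 CPM. The TOR and Rag nutrient sensing genes divided, 4 of 13 rising and 5 falling on the TMM scale, with the order turned under upper-quartile factors. The kinase gene *let-363* (TOR) had 271 and 271 CPM in the fed and 289 and 280 CPM in the starved samples and was not called, while *daf-15* (Raptor) rose from 190 and 189 CPM to 332 and 332 CPM. *sesn-1* (sestrin) fell from 90.3 and 90.3 CPM to 48.9 and 50.1 CPM.

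Autophagy genes rose together at moderate fold changes. Of the 28 tested, 21 rose and 3 fell (median log2 fold change 0.80), and their summed level was 1980 and 2220 CPM in the fed and 4420 and 4450 CPM in the starved samples. *lgg-2*, one of the worm homologs of LC3, had 183 and 252 CPM in the fed and 759 and 768 CPM in the starved samples (log2 fold change 1.77, SE 0.12, adjusted p = 1.29e-09). Its paralog *lgg-1* rose from 325 and 376 CPM to 651 and 636 CPM. *atg-16.2*, needed to attach these proteins to membrane, rose from 22.1 and 21.3 CPM to 110 and 105 CPM, and *sqst-1*, the p62 receptor that delivers cargo, from 321 and 333 CPM to 609 and 664 CPM. The exceptions were *epg-3*, which fell from 82.1 and 77.4 CPM to 40.1 and 46.5 CPM, *atg-5*, from 28.5 and 31.6 CPM to 19.8 and 23.7 CPM, and *bec-1* (Beclin), from 25.8 and 24.8 CPM to 22.3 and 20.3 CPM, whose call was lost without fed replicate 1 or either starved replicate, with library size only and under upper-quartile factors (-0.32 to -0.07, the last under upper-quartile factors). Genes of the Max/Mondo network were listed together with *hlh-30*. Of these, *mxl-3*, a repressor of lipase genes in fed worms, fell from 154 and 151 CPM to 5.91 and 6.82 CPM (log2 fold change -4.62, SE 0.29, adjusted p = 8.34e-07). *mxl-1* rose from 10.4 and 8.62 CPM to 26.9 and 24.6 CPM and *mxl-2*, the partner of MML-1, from 20.9 and 19.6 CPM to 37.9 and 38.1 CPM. *mml-1* rose from 118 and 148 CPM to 184 and 181 CPM but was not called without fed replicate 1 (log2 fold change 0.23, adjusted p = 0.18 in edgeR).

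The digestive and lysosomal hydrolases divided by family. Among the aspartyl proteases, *asp-6* had 2010 and 2360 CPM in the fed and 7150 and 8490 CPM in the starved samples (log2 fold change 1.81, SE 0.10), *asp-4*, the cathepsin D-like lysosomal protease, rose from 68.5 and 68.3 CPM to 263 and 242 CPM, and *asp-8* fell from 23.8 and 25.5 CPM to 8.3 and 9.18 CPM. The 17 genes together made up 10300 and 11700 CPM in the fed and 21100 and 24400 CPM in the starved samples, although only 6 rose and 5 fell, and with low-count genes filtered out or with the 4 samples fitted alone those that rose no longer outnumbered those that fell. Of the 8 cathepsin B-like genes, *cpr-2* and *cpr-6* rose and 6 fell, including *cpr-4*, an intestinal protease gene, from 194 and 235 CPM to 12.6 and 18.1 CPM. The lysosomal lipase gene *lipl-2* rose from 3.24 and 3.96 CPM to 77.1 and 84.3 CPM (log2 fold change 4.45, SE 0.14, adjusted p = 5.92e-20). Of 8 lysosomal lipase genes 5 rose and 2 fell. *lipl-5* rose from 72.2 and 76.1 CPM to 131 and 156 CPM, while *lipl-6* fell, *lipl-1* fell by 1.59 on the log2 scale but was not called when any one of the 4 samples was left out (-1.43 to -1.76), and *lipl-3*, a known fasting-induced lipase gene of older worms, was called higher (log2 fold change 2.26) but stayed under 1 CPM in all 4 samples and was not called with the 4 samples fitted alone, without fed replicate 2 or without starved replicate 2 (1.26 to 2.24). Of 37 other lysosomal hydrolase and membrane protein genes, 21 rose and 13 fell. The acid ceramidase gene *asah-1* rose from 78.4 and 91.9 CPM to 366 and 443 CPM, the NPC1 homolog *ncr-2* from 1.37 and 0.944 CPM to 29.7 and 26.8 CPM, and the intestinal acid phosphatase gene *pho-1* fell from 99.6 and 101 CPM to 4.99 and 4.89 CPM.

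Genes of the proton pump that acidifies lysosomes went the other way. None of the 21 V-ATPase subunit genes rose and 18 fell (median log2 fold change -0.78). In the upward direction 1 passed an unadjusted p under 0.05 and 2 were called under upper-quartile factors. Their summed level was 12100 and 12400 CPM in the fed and 6400 and 6390 CPM in the starved samples. The largest fall was that of *vha-12*, a subunit B gene, with 1190 and 1170 CPM in the fed and 247 and 262 CPM in the starved samples (log2 fold change -2.25, SE 0.09, adjusted p = 5.68e-18). *vha-13* (subunit A) fell from 1750 and 1830 CPM to 499 and 510 CPM. *vha-6*, the intestinal a subunit at the apical membrane, was among the 3 that were not called, with 650 and 678 CPM and 723 and 797 CPM, and was higher under upper-quartile factors (0.37).

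Genes of fat synthesis and of fatty acid breakdown fell more often than they rose. *fasn-1*, which encodes fatty acid synthase (chromosome I, 8975384 to 8986522), had 2040 and 1920 CPM in the fed and 211 and 213 CPM in the starved samples (log2 fold change -3.26, SE 0.21, adjusted p = 8.94e-07). *pod-2*, acetyl-CoA carboxylase, the enzyme before it, fell from 859 and 864 CPM to 561 and 599 CPM. All 7 fatty acid elongase genes that reached 1 CPM in a group fell, from *elo-6* (295 and 243 CPM to 20 and 9.35 CPM), which with *elo-5* makes branched-chain fatty acids, to *elo-1* (657 and 598 CPM to 343 and 317 CPM). For *elo-5* and *elo-6* starved replicate 1 was above starved replicate 2, and both were below both fed samples. Desaturases were mixed, with *fat-2*, *fat-3*, *fat-4* and *fat-6* higher and *fat-1*, *fat-5* and *fat-7* lower. Of the enzymes of storage, *dgat-2* fell from 21.2 and 19.2 CPM to 1.73 and 2.88 CPM and *lpin-1* (lipin) rose from 171 and 232 CPM to 684 and 523 CPM.

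Of 23 genes of mitochondrial beta-oxidation, 1 rose and 18 fell (median log2 fold change -1.44), and of 16 genes of its peroxisomal counterpart 1 rose and 13 fell (median -1.29). The carnitine palmitoyltransferase homolog *cpt-4* fell from 92 and 97.5 CPM to 1.33 and 1.41 CPM (log2 fold change -6.14, SE 0.37, adjusted p = 6.86e-07), and *cpt-1* from 203 and 312 CPM to 111 and 127 CPM. In the peroxisome, *daf-22*, the thiolase that shortens ascaroside side chains, fell from 87.8 and 92.7 CPM to 18.3 and 22.3 CPM, and *acox-1.1*, the acyl-CoA oxidase of the same pathway, from 104 and 104 CPM to 12.1 and 14.8 CPM. The mitochondrial gene that rose was *ech-7*, from 55.2 and 47.6 CPM to 108 and 98.9 CPM. Of the fatty acid binding protein genes 6 of 9 fell, led in level by *lbp-6* (254 and 249 CPM to 20.8 and 19.5 CPM), and *lbp-1* rose from 35.3 and 32.3 CPM to 81.6 and 79 CPM. The regulators changed less. The nuclear receptor gene *nhr-49* rose from 176 and 187 CPM to 258 and 262 CPM and its coactivator *mdt-15* from 504 and 500 CPM to 824 and 831 CPM, while *acs-2*, a fasting-induced target of NHR-49 in later stages, had 3.92 and 5.85 CPM and 1.53 and 2.34 CPM and was not called (log2 fold change -1.37, adjusted p = 0.101), but was called lower with DESeq2, with the older quasi-likelihood method and with the 4 samples fitted alone (-1.35 to -1.38).

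Genes of glycolysis, gluconeogenesis, glycogen and trehalose moved in both directions. In glycolysis 8 genes rose and 9 fell of 19, and the summed level was 4810 and 4840 CPM in the fed and 7170 and 7170 CPM in the starved samples. At several steps paralogs moved apart. The aldolase gene *aldo-2* had 671 and 676 CPM in the fed and 2970 and 2980 CPM in the starved samples (log2 fold change 2.11, SE 0.09, adjusted p = 1.78e-17). Of the phosphofructokinases, *pfk-1.2* rose from 0.903 and 1.22 CPM to 17.2 and 18.5 CPM and *pfk-1.1*, which had the higher level, fell from 233 and 230 CPM to 90.5 and 87.5 CPM. The glyceraldehyde 3-phosphate dehydrogenase gene *gpd-3* rose from 552 and 548 CPM to 1590 and 1540 CPM, and *gpd-2* had 383 and 390 CPM and 369 and 380 CPM and was not called; these genes are close in sequence, so that reads of one may have been lost or counted for the other. *ldh-1*, lactate dehydrogenase, fell from 260 and 255 CPM to 33.7 and 32.9 CPM. Of the gluconeogenic genes, *fbp-1* (fructose bisphosphatase) fell from 173 and 172 CPM to 24.4 and 23.7 CPM and *pck-2* rose from 537 and 546 CPM to 1010 and 1020 CPM. The glycogen phosphorylase gene *pygl-1* fell from 625 and 630 CPM to 243 and 253 CPM, and the trehalase genes *tre-5* and *tre-3* rose from 4.55 and 6.33 CPM to 46.3 and 30.7 CPM and from 26.8 and 28.9 CPM to 75.1 and 77 CPM.

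Tricarboxylic acid cycle genes fell for the most part, 19 of 26 against 2 that rose, and their summed level was 9950 and 10200 CPM in the fed and 5460 and 5650 CPM in the starved samples. The 26 genes included *idh-1*, the cytosolic NADP-dependent isocitrate dehydrogenase, which acts outside the mitochondrial cycle. It had 737 and 715 CPM in the fed and 37.4 and 36.3 CPM in the starved samples (log2 fold change -4.34, SE 0.11, adjusted p = 1.2e-21). The mitochondrial malate dehydrogenase gene *mdh-2* fell from 1080 and 1120 CPM to 96.9 and 115 CPM and the citrate synthase gene *cts-1* from 1520 and 1670 CPM to 354 and 380 CPM. Those that rose were *dlat-2* (a dihydrolipoamide acetyltransferase homolog, 117 and 111 CPM to 242 and 242 CPM) and *idha-1* (434 and 443 CPM to 619 and 660 CPM), a subunit of the NAD-dependent isocitrate dehydrogenase. Of 52 nuclear genes of the respiratory chain, 8 rose and 26 fell, with a median of only -0.26. *atp-1*, an ATP synthase subunit, fell from 3380 and 3440 CPM to 1500 and 1580 CPM, and *nuaf-1*, a complex I assembly factor gene, rose from 13.5 and 13.6 CPM to 68.9 and 70.4 CPM. None of the 12 protein-coding genes of the mitochondrial genome rose and 2 fell in edgeR, with 2 in each direction at an unadjusted p under 0.05. DESeq2 called 2 higher, and under upper-quartile factors more were higher (2) than lower (1). The mitochondrial genome's share of the counts was 1.03% and 1.14% in the fed and 1.02% and 0.928% in the starved samples. *ant-1.1*, which encodes the adenine nucleotide translocator, rose from 5040 and 5370 CPM to 9440 and 10000 CPM.

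**Figure D3:**
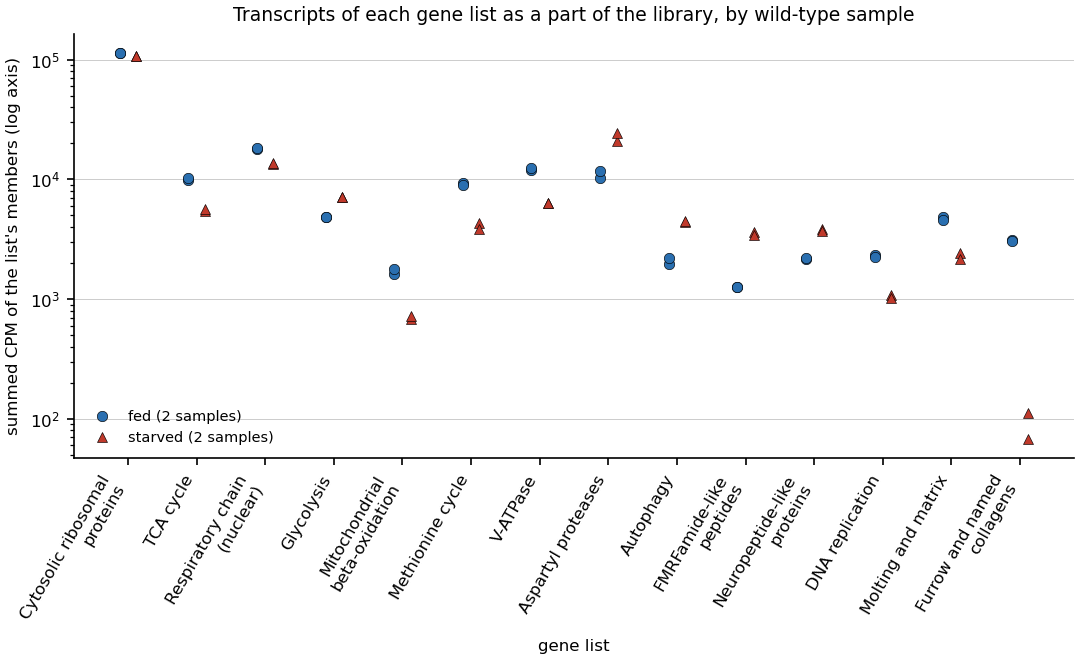
Summed CPM on a log axis of the members of 14 gene lists in each of the 4 wild-type samples; circles are the 2 fed and triangles the 2 starved samples. The sums for autophagy, aspartyl proteases, glycolysis and neuropeptides lie higher in both starved samples, the sum for cytosolic ribosomal proteins lies close to that of the fed samples, and the sum for furrow and other named collagens shows the largest distance, 3090 and 3070 CPM against 67.9 and 111 CPM.

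Genes that move methyl groups fell for the most part. Of 16 genes of the methionine cycle and phosphatidylcholine synthesis, 12 fell and 2 rose (median log2 fold change -1.53). *metr-1*, methionine synthase, had 420 and 400 CPM in the fed and 12.3 and 13.1 CPM in the starved samples (log2 fold change -5.05, SE 0.10, adjusted p = 3.31e-23). *mthf-1*, which makes its methyl donor, fell from 400 and 410 CPM to 19.7 and 23.3 CPM, and *sams-1*, the S-adenosylmethionine synthetase, from 2260 and 2140 CPM to 376 and 280 CPM. *ahcy-1*, which removes S-adenosylhomocysteine, fell from 4170 and 4120 CPM to 813 and 807 CPM. *pmt-1*, the methyltransferase of phosphocholine synthesis, moved in the opposite direction, from 354 and 337 CPM to 2380 and 1990 CPM (log2 fold change 2.62, SE 0.09). In propionate breakdown, 7 of 11 genes fell, among them *acdh-1*, *hphd-1* (233 and 241 CPM to 18.4 and 22.2 CPM) and *ech-6* (315 and 308 CPM to 44 and 45.1 CPM), whereas *alh-8*, which also serves the last step of this route, rose from 1480 and 1460 CPM to 7180 and 7210 CPM. With *alh-8* included, the summed level of the list was 3950 and 3870 CPM in the fed and 7980 and 8010 CPM in the starved samples although most of its members fell.

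Of 13 peptide and amino acid transporter genes, 7 fell (53.8%) and 2 rose (15.4%). Their summed level was 863 and 842 CPM in the fed and 407 and 389 CPM in the starved samples. Of 13 heme and iron genes, 5 fell (38.5%) and 3 rose (23.1%), with sums of 1380 and 1370 CPM and 734 and 768 CPM. Over all protein-coding genes tested 30.6% fell and 27.8% rose. *pept-1*, the intestinal dipeptide transporter, had 516 and 496 CPM in the fed and 60.5 and 60 CPM in the starved samples (log2 fold change -3.11, SE 0.09, adjusted p = 1.53e-20), and its homolog *pept-2* rose from 20.4 and 19 CPM to 56.5 and 47.2 CPM. Among the heme and iron genes, *hrg-7*, a secreted protein that signals heme status, fell from 187 and 161 CPM to 19.1 and 21.3 CPM. The ferritin gene *ftn-1* rose from 5.33 and 9.04 CPM to 49.6 and 47.8 CPM and the iron importer gene *smf-3* from 3.39 and 3.71 CPM to 26.7 and 27.8 CPM, while the more abundant ferritin gene *ftn-2* fell from 307 and 325 CPM to 180 and 184 CPM.

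Growth genes showed a split between the ribosome itself and what makes and uses it. Of the 83 cytosolic ribosomal protein genes, 1 rose and 7 fell (median log2 fold change -0.14), smaller shares than over all genes tested. The number that fell was 44 with the 4 samples fitted alone, 17 with the older quasi-likelihood method and 14 without wild-type CeMM 15 h replicate 2, and 1 without fed replicate 2, without starved replicate 1 or under upper-quartile factors, where 3 rose. Their summed level was 114000 and 113000 CPM in the fed and 107000 and 107000 CPM in the starved samples. The single member that rose, *rpl-24.2* (94.4 and 89.8 CPM to 357 and 337 CPM), is the homolog of a ribosome biogenesis factor. Genes of ribosome assembly changed far more, with 19 of 29 lower and 8 higher. *fib-1*, fibrillarin, the methylase of pre-rRNA, had 1010 and 981 CPM in the fed and 36.6 and 42.6 CPM in the starved samples (log2 fold change -4.68, SE 0.14, adjusted p = 8.34e-15), and its partners *nol-56* and *nol-58* fell from 778 and 738 CPM to 47.2 and 54.3 CPM and from 821 and 790 CPM to 84.4 and 79.4 CPM. Some assembly factor genes rose, such as the kinase gene *riok-1* (116 and 115 CPM to 650 and 593 CPM) and the pescadillo homolog *lpd-7* (277 and 258 CPM to 1040 and 994 CPM).

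Of 43 translation factor genes, 32 fell and 4 rose. *inf-1*, the eIF4A helicase, fell from 1100 and 1030 CPM to 43.6 and 46.7 CPM (log2 fold change -4.59, SE 0.11), and *eif-3.C* from 518 and 484 CPM to 60.1 and 56.9 CPM. The elongation factor genes *eef-1A.1* and *eef-1A.2*, whose coding sequences are nearly identical, moved apart, *eef-1A.1* from 8220 and 8150 CPM to 10600 and 11000 CPM and *eef-1A.2* from 4780 and 4770 CPM to 977 and 1110 CPM; counting of uniquely aligned reads may leave out or misplace reads of such pairs. Among the 20 cytosolic aminoacyl-tRNA synthetase genes, 14 fell, led by *kars-1* (lysine, 423 and 398 CPM to 42.5 and 47.6 CPM), and *cars-1*, *rars-1* and *lars-1* (cysteine, arginine and leucine) rose. Mitochondrial ribosomal protein genes fell in 51 of 68 cases and rose in 9. Proteasome subunit genes fell almost throughout, 31 of 33, by a median of -1.0 on the log2 scale, with *pas-4* going from 65.5 and 58.4 CPM to 21.6 and 19.5 CPM. The only one that rose was *rpn-6.2*, a paralog at a low level (0.779 and 0.883 CPM and 5.02 and 5.11 CPM). Chaperone genes fell in 18 of 30 cases. *hsp-60*, the mitochondrial chaperonin (chromosome III, 1619742 to 1625920), had 620 and 598 CPM in the fed and 15.1 and 16.1 CPM in the starved samples (log2 fold change -5.32, SE 0.11, adjusted p = 5.31e-23). *hsp-1* (HSC70) fell from 3650 and 3510 CPM to 814 and 822 CPM and *hsp-90* from 2080 and 1980 CPM to 1360 and 1260 CPM. In the endoplasmic reticulum, *atf-6* and *pek-1*, genes of sensors of unfolded protein, rose by log2 fold changes of 1.33 and 0.83.

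DNA replication genes fell nearly without exception. Of 43 tested, 37 fell and 1 rose (median log2 fold change -1.49). *mcm-2*, a subunit of the replicative helicase, had 101 and 101 CPM in the fed and 11.6 and 10.4 CPM in the starved samples (log2 fold change -3.23, SE 0.11, adjusted p = 3.3e-19). *rnr-1*, the large subunit of ribonucleotide reductase, fell from 159 and 159 CPM to 19.6 and 18.8 CPM, and the topoisomerase gene *top-2* from 152 and 143 CPM to 32.9 and 34.6 CPM. Cell cycle regulators were divided, with 15 of 29 lower and 9 higher. The mitotic kinase genes *plk-1* and *bub-1* fell from 83.3 and 81 CPM to 18.3 and 16.3 CPM and from 62.3 and 56.6 CPM to 10.2 and 11.1 CPM. *cki-1*, the CDK inhibitor that holds blast cells in G1 during arrest, rose from 16.9 and 17.5 CPM to 27.6 and 26.5 CPM (log2 fold change 0.62, SE 0.11; chosen after its values were seen). Among the histones, the linker gene *hil-1* (H1.X) stood out, with 3.24 and 3.38 CPM in the fed and 259 and 263 CPM in the starved samples (log2 fold change 6.27, SE 0.12, adjusted p = 7.01e-24). The H3.3 gene *his-71* rose from 90.8 and 89.1 CPM to 253 and 243 CPM, and *htz-1* (H2A.Z) fell from 203 and 196 CPM to 82.4 and 83.3 CPM. Replication-dependent histone genes are near-identical copies, so their 16 rises and 10 falls among 51 genes are uncertain, the falls numbering 4 to 6 without fed replicate 1, starved replicate 1 or starved replicate 2.

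The furrow and other named collagens had the largest median shift of the lists examined, and the collagens named col a smaller one. Of the 20 furrow and other named collagen genes, 15 fell and 1 rose (median log2 fold change -5.44), and their sum was 3090 and 3070 CPM in the fed and 67.9 and 111 CPM in the starved samples. *sqt-3*, a collagen that every larval cuticle needs, had 658 and 659 CPM in the fed and 16.4 and 36.1 CPM in the starved samples (log2 fold change -4.67, SE 1.56, adjusted p = 0.0428), a fall of -4.20 to -5.39 that was no longer called without any one of the 4 samples or without wild-type CeMM 15 h replicate 2. *dpy-13* fell from 382 and 400 CPM to 2.02 and 4.59 CPM and *dpy-7*, which builds the furrows of the cuticle, from 73 and 65.9 CPM to 1.27 and 2.2 CPM, the latter not called without either starved replicate (-5.83 and -4.99). In all 15 members that fell, starved replicate 2 was above starved replicate 1, and both were below both fed samples. Lying below both fed samples nearly follows from the call, and the groups did not overlap in 58.9% of all genes tested. Of 154 collagen genes named col, 72 fell and 31 rose, with a median of -0.70. *col-42* was a riser of high level (583 and 570 CPM to 1220 and 1190 CPM), and *col-160* fell from 1130 and 1120 CPM to 562 and 532 CPM.

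Molting genes moved with the collagens. Of 33 regulators and apical matrix genes, 24 fell and 5 rose (median log2 fold change -2.72), those that rose numbering 3 without fed replicate 1 and 2 without fed replicate 2. *lin-42*, the Period homolog whose level cycles with the molts (chromosome II, 1233244 to 1244035), had 267 and 263 CPM in the fed and 1.79 and 3.42 CPM in the starved samples (log2 fold change -6.69, SE 1.03, adjusted p = 0.000615). *mlt-11*, a protease inhibitor of the matrix, fell from 639 and 592 CPM to 6.6 and 9.92 CPM (not called without either starved replicate, at -5.96 and -6.61) and *nhr-23*, the nuclear receptor that drives the molt, from 47.9 and 46.8 CPM to 9.89 and 10.2 CPM. *lrp-1* (megalin), which takes up sterol for molting, rose from 436 and 434 CPM to 1150 and 906 CPM, but was not called without fed replicate 1, fed replicate 2 or starved replicate 1 (1.05 to 1.18). Hedgehog-related genes fell in 39 of 59 cases and rose in 5, and their sum was 1610 and 1580 CPM in the fed and 126 and 174 CPM in the starved samples. *grd-13* fell from 154 and 152 CPM to 3.11 and 4.08 CPM, and the patched-related *ptr-18* from 65.2 and 63.4 CPM to 1.96 and 3.59 CPM. Of the heterochronic genes, which time larval development, *lin-28*, high in young larvae, rose from 83.1 and 81.4 CPM to 214 and 194 CPM, and *blmp-1* fell from 145 and 136 CPM to 23 and 19.2 CPM.

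Stress and defence genes had no common direction. Of 22 antioxidant genes, 12 rose and 7 fell, *sod-3* and *prdx-2* (648 and 629 CPM to 918 and 986 CPM) among the former and *sod-2* (35.7 and 35.7 CPM to 16.6 and 16 CPM) among the latter. The call of *prdx-2* was lost without fed replicate 2 or starved replicate 2 (log2 fold changes 0.50 and 0.46). Of the small heat shock proteins, *sip-1* rose from 3.96 and 4.9 CPM to 51.8 and 56.9 CPM and *hsp-12.3* from 12.7 and 13.4 CPM to 124 and 90 CPM, while *hsp-25* and *hsp-17* fell. More detoxification genes fell than rose. This held for 44 of 67 UDP-glucuronosyltransferase genes (median log2 fold change -2.32), 31 of 49 glutathione S-transferase genes and 34 of 75 cytochrome P450 genes, with 10, 11 and 19 rising. *ugt-22* fell from 127 and 120 CPM to 3.17 and 5.11 CPM, *gst-7* from 260 and 269 CPM to 20.4 and 29.8 CPM, and *gst-20* rose from 141 and 147 CPM to 576 and 586 CPM.

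Among genes of innate defence, 75 of 229 C-type lectin genes fell (32.8%) and 39 rose (17%). Over all protein-coding genes tested 30.6% fell and 27.8% rose, so the share of lectin genes that fell was near that background. Of the 229 lectin genes, 126 stayed under 1 CPM in both groups. The 18 CUB-like, dod and irg genes, many of which respond to bacteria in the gut, fell in 13 cases. *irg-8* had 177 and 171 CPM in the fed and 1.64 and 1.87 CPM in the starved samples (log2 fold change -6.66, SE 0.14, adjusted p = 6.25e-23), and *dod-19* fell from 324 and 318 CPM to 9.98 and 14 CPM. Saposin-like genes went both ways, *spp-8* rising from 86.1 and 97 CPM to 1140 and 1190 CPM and *spp-17* falling from 128 and 119 CPM to 3.75 and 3.97 CPM. Of 63 chitinase-like and pals genes, which respond to intracellular or oomycete infection, 29 rose and 9 fell, with a median log2 fold change of 0.60, or 0.53 where a group without counts was set to 3 counts per library. *chil-13* rose from 4.67 and 4.99 CPM to 89.8 and 77.1 CPM, and *chil-16* had no count in the fed samples and 9.54 and 9.07 CPM in the starved samples.

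Neuropeptide genes rose as a group. Of 31 FMRFamide-like peptide genes, 28 rose and 1 fell (median log2 fold change 1.31), and their sum was 1250 and 1250 CPM in the fed and 3620 and 3450 CPM in the starved samples. *flp-27* had 21.6 and 23.3 CPM in the fed and 156 and 135 CPM in the starved samples (log2 fold change 2.66, SE 0.10, adjusted p = 4.93e-18). *flp-1*, which regulates locomotion, rose from 104 and 104 CPM to 361 and 368 CPM. The only member that fell was *flp-8*, from 47.8 and 45 CPM to 33.5 and 34.3 CPM. Of 71 neuropeptide-like protein genes 49 rose and 11 fell. *nlp-49* rose from 203 and 211 CPM to 554 and 583 CPM. The largest falls were those of *nlp-34*, *nlp-25* and *nlp-24*, which are grouped with the antimicrobial peptides of the epidermis, with log2 fold changes of -3.05, -2.95 and -2.87. Of 20 synaptic and neuropeptide processing genes, by contrast, 7 rose and 7 fell (median log2 fold change 0.04), with more rises than falls in 9 of 15 alternatives (10 and 3 under upper-quartile factors) and fewer (5 and 6) without fed replicate 2. The largest rises were those of 3 genes of peptide processing. *egl-3*, the proprotein convertase, had 819 and 818 CPM in the fed and 2780 and 2640 CPM in the starved samples (log2 fold change 1.69, SE 0.08), *egl-21*, the carboxypeptidase, rose from 481 and 474 CPM to 1360 and 1250 CPM, and *sbt-1* (7B2) from 231 and 219 CPM to 718 and 701 CPM.

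General neuronal genes were mixed. Among 10 neuron markers, 4 rose and 2 fell. Of those that rose, *egl-3* and *sbt-1* belong to neuropeptide processing. *rab-3*, a synaptic vesicle gene, fell from 149 and 159 CPM to 109 and 108 CPM, *unc-64* (syntaxin) from 125 and 117 CPM to 105 and 103 CPM (not called without fed replicate 1 or either starved replicate, with library size only or under upper-quartile factors, at -0.26 to -0.03), and *snb-1*, *ric-4*, *unc-13* and *unc-119* were not called, although the first 3 were higher under upper-quartile factors (0.29 to 0.44). The markers of other tissues were measured in the same way. Of 10 pharynx markers 8 rose, by at most 0.87 on the log2 scale (*myo-1*), but only 4 did so without fed replicate 1 or without starved replicate 2, when *myo-1* was not called. Of 28 muscle filament genes 17 fell and 7 rose (median log2 fold change -0.53), the rises numbering 3 without fed replicate 1. In body wall muscle, 3 markers rose and 5 fell, with 1 higher without fed replicate 1, fed replicate 2 or starved replicate 2, 3 lower without fed replicate 2 or starved replicate 1, and the order turned under upper-quartile factors, and *unc-54*, the major myosin, had 8430 and 8710 CPM in the fed and 17300 and 16600 CPM in the starved samples (log2 fold change 0.95, SE 0.12). Actin genes were lower, *act-3* from 1210 and 1290 CPM to 127 and 144 CPM and *act-1* from 688 and 700 CPM to 173 and 202 CPM, but the reads of *act-1*, *act-2* and *act-3* are hard to tell apart. Among 11 intestine markers 6 fell and 4 rose. *act-5*, the actin of intestinal microvilli (chromosome III, 13604339 to 13606067), had 2180 and 2340 CPM in the fed and 85.6 and 111 CPM in the starved samples (log2 fold change -4.56, SE 0.23, adjusted p = 8.59e-08), whereas *ifb-2*, an intestinal intermediate filament gene, rose from 696 and 767 CPM to 2120 and 2370 CPM. *elt-2*, the GATA factor of the intestine, fell from 21 and 23 CPM to 17.2 and 16.2 CPM, but was not called under upper-quartile factors (-0.22). Hypodermis markers fell in 8 of 10 cases, with *elt-3* at 78.1 and 74.3 CPM and 82.3 and 72.9 CPM not called. The part of cell composition in these differences was not tested.

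Regulators in the genome-wide families were mixed. Of 271 nuclear hormone receptor genes, 98 rose (36.2%) and 77 fell (28.4%), beside 27.8% and 30.6% of all protein-coding genes tested. *nhr-88* rose from 137 and 167 CPM to 965 and 849 CPM and *nhr-18* from 7.35 and 7.67 CPM to 154 and 142 CPM, and *nhr-97* fell from 421 and 424 CPM to 216 and 207 CPM. Stage markers were also read. Of 20 genes of oocytes and early embryos, 16 rose and 1 fell, at summed levels of 66.4 and 66.3 CPM in the fed and 193 and 170 CPM in the starved samples. *pos-1*, a maternal RNA-binding protein gene, had 2.12 and 2.53 CPM in the fed and 27.2 and 22.5 CPM in the starved samples. The 14 major sperm protein genes with a count summed to less than 0.5 CPM in every sample. Among genes often used as references in qPCR, *tbp-1* (25.6 and 22.1 CPM and 27.7 and 24.9 CPM) and *pmp-3* (104 and 104 CPM and 97.1 and 87.4 CPM) were not called, and *act-1*, *tba-1*, *cdc-42*, *ama-1* and *eif-3.C* fell, from -0.45 for *ama-1* to -3.13 for *eif-3.C* on the log2 scale. *pmp-3* was called lower with limma-voom and with the 4 samples fitted alone (-0.21 and -0.22), and under upper-quartile factors *tbp-1* was called higher (0.32) and *ama-1* was not called (-0.24).

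**Figure D4:**
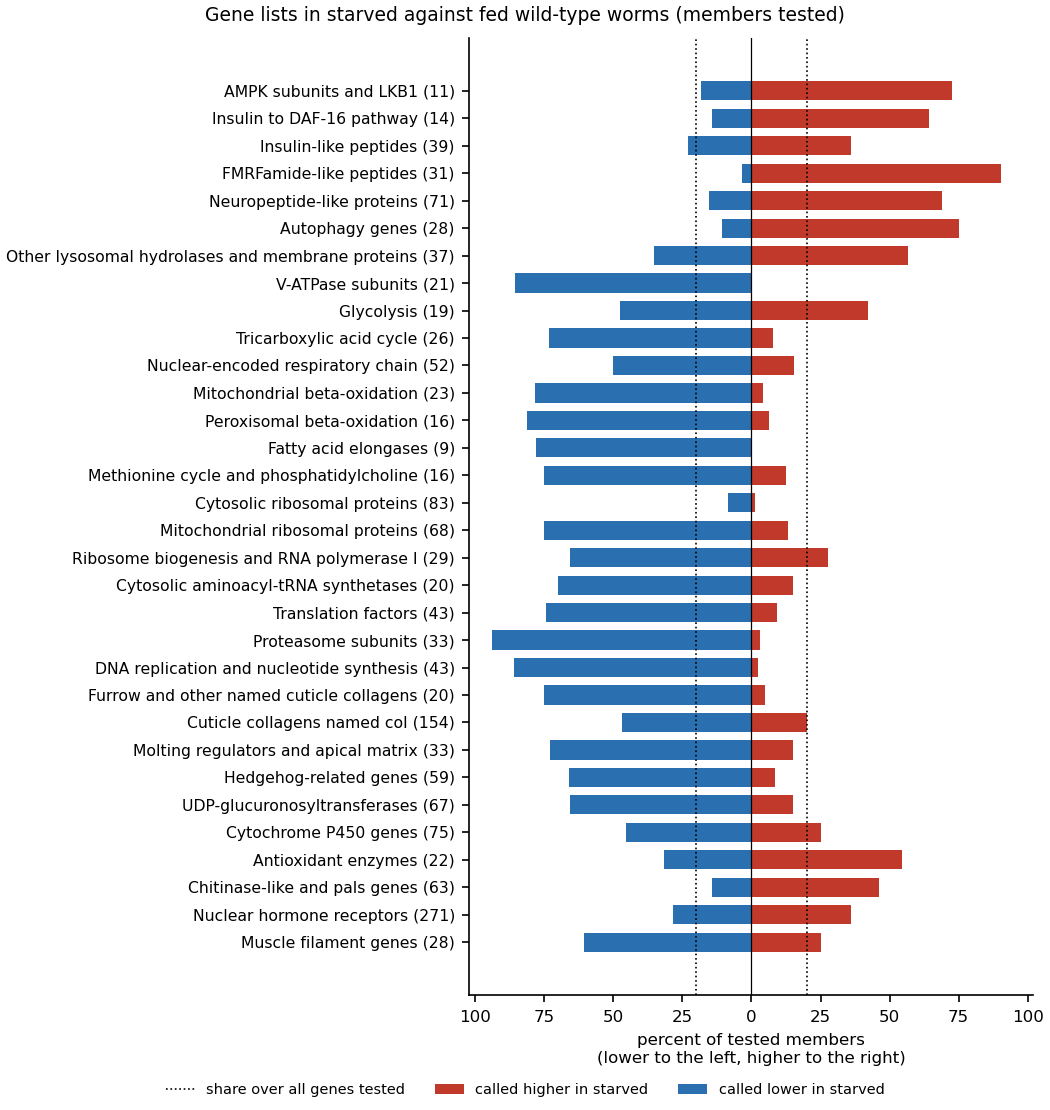
Percent of the tested members of 32 gene lists that rose (red, to the right) or fell (blue, to the left) in starved against fed wild-type worms, with the number tested in parentheses; dotted lines mark the 20.1% of all genes tested in each direction. Over protein-coding genes alone, 27.8% rose and 30.6% fell. Of the 14070 genes at 1 CPM or more in a group, 4929 rose and 5578 fell, larger shares than the dotted lines show. FMRFamide-like peptide, autophagy and AMPK genes lie farthest to the right, and proteasome, DNA replication and V-ATPase genes farthest to the left.

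The wild-type response differed from that of the *hlh-30* mutant in many genes. The difference between the responses, tested as the genotype by starvation interaction in edgeR, was positive (a higher change in the libraries labelled mutant) for 4259 genes and negative for 4106, together 27.7% of genes tested. Since gene counts do not resolve the *hlh-30* deletion, and *hlh-30* averaged 400 CPM in the fed and 765 CPM in the starved libraries labelled mutant, those libraries are named by their label. Many lysosomal genes that rose in wild type changed less, or fell, in the mutant libraries. *lipl-2* averaged 4.21 CPM in fed and 0.606 CPM in starved mutant libraries (interaction -7.31 on the log2 scale, SE 0.23, adjusted p = 8.26e-19), and *cpr-2* 0.367 CPM and 0.444 CPM (interaction -9.58, SE 1.03). Of the 37 other lysosomal genes the interaction was negative for 22 and positive for 8. The rise of neuropeptide genes was also larger in wild type, with a negative interaction for 20 of 31 FMRFamide-like peptide genes. For the respiratory chain the interaction was negative in 39 of 52 genes, whose median log2 fold change was -0.26 in wild type and -1.38 in the mutant libraries. In the other direction, DNA replication genes fell further in wild type (interaction positive for 28 of 43), as did the elongases (7 of 9), the molting and matrix genes (15 of 33) and the hypodermis markers (7 of 10). The furrow and other named collagens, at a median of -5.44 in wild type and -5.23 in the mutant libraries, had a called interaction in 1 of 20 genes.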

How the data were processed

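RNA of whole L1 worms was made into libraries with Illumina TruSeq reagents and sequenced as single reads of 50 bases. Per the labels and the study's methods, the authors aligned the reads with STAR 2.0.4b to the WBcel235 genome and counted reads per gene with featureCounts, so that each deposited file holds a raw count for every annotated gene of 1 sample. The deposited files also hold CPM and RPKM columns that the authors made from the count, the total and the exonic length, and both were recomputed from the counts to within 4.95e-10. Counting did not resolve transcript isoforms, and near-identical genes may share reads.

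The 8 groups of 2 samples were fitted together with edgeR 4.0.16 in R 4.3.3 (TMM factors, 1 coefficient per group, quasi-likelihood test with robust shrinkage), without the replicate number as a block. The wild-type starved minus fed contrast was tested for the 30177 of 46726 genes with a count in any of the 16 samples, with Benjamini-Hochberg adjustment over all of them and a threshold of 0.05. The same fit gave the genotype by starvation interaction. The authors used limma-voom, which is among the alternatives here. CPM values in the text are counts over the sample's total without TMM factors. With 2 samples per group an exact permutation test of a single gene cannot go below p = 0.33, so p-values come only from the model across genes. Replicates differed beyond sampling noise and were all kept. Tested on simulated counts over 29029 genes, the fit recovered 91 of 100 genes changed by 1 and 100 of 100 changed by 2 on the log2 scale. There were 8 false calls among 199. Only 200 genes were changed there, as many up as down and all of them well counted. The simulation therefore cannot give the rate of false calls for genes with few counts. Nor can it do so for the real contrast, where 6055 genes were higher and 6076 lower.

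Genes named are the 12 largest rises and falls, the 10 most abundant genes per group, members of 74 gene lists (all members of lists of up to 12 genes, otherwise the 3 largest changes in each direction and the 3 most abundant), *hlh-30*, and the genes whose response differed most between genotypes. The members and lists were chosen with earlier results of these data known. Symbols came from a table of gene names (27879 of the genes tested matched; 15 list entries did not), positions from the deposited files. Alternatives were DESeq2 1.42.0, limma-voom (limma 3.58.1), other scalings and filters, a replicate block and leaving out samples. Sequences and promoters were not analysed here.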

Additional observations from a re-analysis of the deposited data

Results flagged for a closer look

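The genotype by starvation interaction, tested in edgeR, marks the results in which the wild-type response differed from that of the libraries labelled mutant. Among the genes tested 4259 had a positive and 4106 a negative interaction, and among those named in the text 77 and 90. The gene whose label it checks, *hlh-30*, had an interaction of 0.90 on the log2 scale (SE 0.14), with 633 and 664 CPM in fed and 673 and 606 CPM in starved wild-type samples and means of 400 CPM and 765 CPM in the fed and starved libraries labelled mutant.

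The most positive interactions among the genes named by rule were those of *irg-8* (5.52), *dod-19* (4.60), *C55B7.3* (4.00), *fbn-1* (3.75) and *ptr-18* (3.68). All 5 genes fell in wild type. *irg-8*, an infection response gene, averaged 148 CPM in fed and 71.9 CPM in starved mutant libraries, beside a wild-type log2 fold change of -6.66. *fbn-1*, which encodes a fibrillin-like protein of the epidermal matrix, had 145 and 131 CPM in fed and 1.61 and 2.8 CPM in starved wild-type samples and means of 164 CPM and 36.8 CPM in the mutant libraries.

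The most negative were those of *cpr-2* (-9.58), *F43C11.7* (-8.26), *cyp-34A10* (-7.70), *lipl-2* (-7.31) and *F40E3.5* (-7.30). All 5 rose in wild type. *cyp-34A10*, a cytochrome P450 gene, had 0.28 and 0.7 CPM in fed and 22.6 and 22.9 CPM in starved wild-type samples and means of 0.755 CPM and 0.178 CPM in the mutant libraries. *F40E3.5* had 1.68 and 1.58 CPM and 289 and 244 CPM in wild type and means of 1.07 CPM and 1.19 CPM in the mutant libraries. Groups of 2 samples were too small to look for single outlying samples by rule.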

How the results depend on the processing

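The counts of 6055 higher and 6076 lower genes were 5459 and 5747 with DESeq2, 6296 and 6205 with limma-voom, 6033 and 6156 with the older quasi-likelihood method, 6197 and 5990 with DESeq2's size factors in edgeR, 6190 and 6001 over the 17441 genes that passed a low-count filter, 6105 and 5725 with library size only, 5682 and 6161 with the 4 samples fitted alone, 6056 and 6077 without rRNA genes, and 7530 and 5011 with upper-quartile factors. Requiring at least a 2-fold change left 3651 and 3590. Leaving out 1 of the 4 samples gave 4926 to 5343 higher and 5431 to 5740 lower genes, with 5328 and 5431 without starved replicate 1, the sample with yolk transcripts; the sample left alone in its group was assumed to vary like the others. No gene was called in opposite directions in any of these settings. Without wild-type CeMM 15 h replicate 2, an alternative chosen after seeing the data, the counts were 6101 and 6135. The study's replicates were prepared at different times with their controls, but nothing says that a sample's number marks a shared time, and over 13529 genes the deviations of same-numbered fed and starved samples correlated by 0.0745 with 2 pairs; with the replicate block 5979 genes were higher and 6048 lower. Of the 240 genes named in the text 219 were called, and over 15 settings 39 of 3600 values lost a call, 37 gained one and none of the called values changed sign. Of 74 lists, 6 led in the opposite direction under upper-quartile factors, among them the dauer pathway and trehalose and glycogen lists, and 8 others were tied in some setting, such as the NHR-49 network without fed replicate 1, fed replicate 2 or starved replicate 2; the cause was not tested. The interaction counts of 4259 and 4106 ranged from 3805 to 4281 and from 3512 to 3893 with 1 wild-type or mutant sample left out. Depth limits genes near 3 counts, for which fold changes are uncertain. The planned search of promoters for motifs was not run.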

Other observations

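Several gene families outside the lists of the report also moved in starved wild-type worms. They were chosen after their values were seen, so their counts are a description. Over all protein-coding genes tested, 27.8% rose and 30.6% fell. Genes for F-box, BTB and MATH domain and Skp1-related proteins rose more often than they fell. Of 308 F-box genes of the fbxa, fbxb and fbxc families tested, 96 rose (31.2%) and 25 fell (8.12%). The share of F-box genes that rose was near the 27.8% of all protein-coding genes tested. Of the 308 F-box genes, 185 stayed under 1 CPM in both groups, which leaves little room to call a fall. Among the 123 at 1 CPM or more in a group, 76 rose and 21 fell. Of the 13438 protein-coding genes at that level, 4594 rose and 5461 fell. Of 89 BTB and MATH domain genes 41 rose (46.1%) and 8 fell (8.99%), and 37 stayed under 1 CPM in both groups. Of 20 Skp1-related genes 13 rose (65%) and 1 fell (5%), beside 31 of 33 proteasome subunit genes that fell. *skr-19* had 24.9 and 27.3 CPM in the fed and 138 and 132 CPM in the starved samples (log2 fold change 2.33), and *math-28* rose from 0.934 and 0.852 CPM to 22.8 and 21.3 CPM. Of 31 receptor guanylate cyclase genes 17 rose and 1 fell, and *gcy-15* had 9.75 and 10.9 CPM in the fed and 34.4 and 35.2 CPM in the starved samples. Of 1189 chemoreceptor genes 255 rose (21.4%, beside 20.1% of all genes tested) and 76 fell (6.39%, beside 20.1%), and 1020 of the 1189 stayed under 1 CPM in both groups. *srv-4*, at the higher end, rose from 0.81 and 0.639 CPM to 21.5 and 18.8 CPM. Homeobox genes named ceh rose in 31 of 63 cases and fell in 6.

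Genes of the secretory path, nuclear pore and transcription machinery fell. None of 19 genes named sec rose and 16 fell, and *sec-61.A*, a subunit of the channel through which proteins enter the endoplasmic reticulum, had 1020 and 1070 CPM in the fed and 138 and 155 CPM in the starved samples (log2 fold change -2.87). None of 26 nuclear pore genes rose and 23 fell, with *npp-9* going from 355 and 325 CPM to 96 and 101 CPM. Of 11 RNA polymerase II subunit genes 10 fell and 1 rose. Among enzymes and pumps of the gut and epidermis, 11 of 14 P-glycoprotein genes fell (*pgp-6*, 33.9 and 33.9 CPM to 5.42 and 5.49 CPM), 23 of 53 acyltransferase genes named oac fell and 2 rose (*oac-14*, 95.3 and 101 CPM to 2.42 and 4.84 CPM), and 9 of 14 lipase-related genes named lips fell and 1 rose (*lips-6*, 19.4 and 20.4 CPM to 0.0865 and 0.245 CPM).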
